A study of Mus musculus with 8 samples.

Results

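Genes of DNA replication and cell division were examined in adult mouse bone with and without Girk3. They are 40 genes named by their known role, 16 of S phase and 24 of G2 phase and mitosis, taken by symbol from the 49315 genes of the count table. All 40 were found, and all 40 passed the filter on low counts. The samples are femoral shafts of male C57BL6 mice aged 24 weeks, with the ends cut off and the marrow flushed out with saline. The groups are 4 wild-type mice (WT) and 4 Girk3-/- mice (KO), and the gene symbol of Girk3 is Kcnj9. Girk3 is a subunit of inward rectifier potassium channels gated by G proteins, and the series title links its loss to osteoblast maturation and bone mass. The labels give 1 tissue and 1 age, and do not say how the deletion was made or in which cells the gene is lost. Reads come from whole bone, so more dividing cells and more RNA per dividing cell cannot be told apart.

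A dividing cell copies its DNA once and then separates the copies. Cyclin E with its kinase opens S phase, Cdc6 and Cdt1 load the Mcm helicase on replication origins, Cdc45 and the GINS complex switch the helicase on, and Pcna holds the polymerases on the template. Cyclins A and B with Cdk1 then drive mitosis, the Aurora and Polo kinases build the spindle, and the anaphase-promoting complex (APC/C), with its adaptor Cdc20 and its ubiquitin-conjugating enzyme Ube2c, ends mitosis by marking cyclins and securin for destruction. Genes of the S phase programme are known targets of E2F factors, and those of G2 and mitosis of the DREAM complex, B-Myb, FoxM1 and NF-Y. In a bone shaft, dividing cells can be osteoprogenitors, but also residual marrow precursors of red cells, granulocytes and B cells.

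The promoters were searched for sequence features of the S phase and mitotic programmes, without any use of the counts. CHR and E2F-type matches differed in share between the programmes, while CCAAT was common in both. RefSeq promoter windows on GRCm38.p6, from 250 bases before to 50 bases after a start, were matched by symbol for 33 of the 40 members, in 35 windows. Both strands were searched for TTTGAA or TTCGAA (the CHR element of mitotic genes), for CCAAT (the NF-Y box), and for E2F-type elements, spelled TTTCGCG, or with the core changed to TTTGGCG, or to the variant TTTCCCG, or lastly to TTTGCCG. Matches may overlap one another. A CHR match was present in 17 of 21 G2/M windows (81.0%) and in 3 of 14 S windows (21.4%), against 14.2% of the 15481 windows of genes tested here and 19.2% of all 32851 windows. CCAAT was present in 19 of 21 G2/M windows (90.5%) and 10 of 14 S windows (71.4%), against 36.9% of windows of tested genes and 37.4% of all. An E2F-type match was present in 6 of 14 S windows (42.9%) and 3 of 21 G2/M windows (14.3%), against 9.90% and 6.70%. A match is a string of letters and not a measured binding site. Below are 5 promoters on their own strand, 5′ to 3′, with matches in capitals and with transcribed bases left out. Mcm6 is an S member with 3 E2F-type and 2 CCAAT matches, while most S windows hold no E2F-type match. Mki67 and Top2a show the mitotic type, with 2 and 4 CHR matches. Cdk1 holds all 3 kinds of match. Ube2c is shown because its pattern over the libraries was unlike that of the other members; its 6 CCAAT matches lie in the stretch printed, and its 1 CHR match begins at position -29, inside the first GENCODE exon.
Mcm6, chr1:128359706-128359955, minus strand: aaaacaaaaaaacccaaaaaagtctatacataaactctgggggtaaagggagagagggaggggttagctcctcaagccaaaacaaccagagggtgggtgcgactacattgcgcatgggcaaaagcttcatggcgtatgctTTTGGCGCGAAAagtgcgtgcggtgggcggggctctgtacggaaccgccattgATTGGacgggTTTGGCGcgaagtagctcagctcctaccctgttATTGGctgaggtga
Mki67, chr7:135716380-135716629, minus strand: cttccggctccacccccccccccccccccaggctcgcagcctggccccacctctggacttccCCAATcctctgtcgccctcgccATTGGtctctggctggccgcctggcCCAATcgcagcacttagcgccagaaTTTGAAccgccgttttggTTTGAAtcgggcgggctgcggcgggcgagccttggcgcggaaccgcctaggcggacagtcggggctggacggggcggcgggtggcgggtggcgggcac
Top2a, chr11:99024190-99024439, minus strand: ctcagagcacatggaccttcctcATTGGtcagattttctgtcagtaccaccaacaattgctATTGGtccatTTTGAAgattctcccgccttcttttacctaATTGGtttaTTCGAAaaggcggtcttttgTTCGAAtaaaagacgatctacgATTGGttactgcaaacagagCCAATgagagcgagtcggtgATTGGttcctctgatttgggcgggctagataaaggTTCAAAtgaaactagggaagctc
Cdk1, chr10:69352939-69353162, minus strand: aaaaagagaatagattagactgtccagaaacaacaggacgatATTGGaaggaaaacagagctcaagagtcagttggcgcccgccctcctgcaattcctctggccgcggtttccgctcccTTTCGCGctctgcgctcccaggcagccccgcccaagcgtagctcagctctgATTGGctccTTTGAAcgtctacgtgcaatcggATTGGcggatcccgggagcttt
Ube2c, chr2:164769679-164769897, plus strand: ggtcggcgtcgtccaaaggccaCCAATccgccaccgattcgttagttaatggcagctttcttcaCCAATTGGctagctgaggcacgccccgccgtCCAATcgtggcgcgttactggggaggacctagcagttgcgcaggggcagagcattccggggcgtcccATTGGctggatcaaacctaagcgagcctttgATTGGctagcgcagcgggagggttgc

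The libraries held 30087749 to 36553713 counts. The bone markers Col1a1 (4407 to 11973 CPM, counts scaled to a common library size), Bglap (127 to 443 CPM), Dmp1 (39.9 to 142 CPM) and Sost (7.27 to 31.2 CPM) were present in every library. The targeted gene Kcnj9 received 7, 6, 6 and 23 counts in the WT libraries, in replicate order, and 0, 8, 4 and 7 in the KO libraries, too few to check a label. Libraries WT replicate 4 and KO replicate 4 lay farthest apart on principal component 1 of all genes (53.5 and -60.5, against -20.1 to 14.7 in the other 6). They also had the highest and lowest scaling factors (1.18 and 0.831, against 0.986 to 1.05). Results on the members are therefore given with and without these libraries.

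No cell cycle gene passed the test between the genotypes. The quasi-likelihood test of edgeR, adjusted by Benjamini-Hochberg over 17450 genes, called 0 of the 40 members and 2 genes in all (0.0115%). At an unadjusted p under 0.05 it held 1 member higher in KO (Ube2c) and 2 lower (Cenpe and Prc1), against 9.59% of all genes higher and 8.59% lower. DESeq2 and limma-voom with quality weights each called 1 member, Ube2c, against 6.48% and 4.02% of all genes. Negative log2 fold changes (KO against WT) were found for 38 of the 40 members, and the median was -0.37, against 51.4% of all genes and a median of -0.01. Without WT replicate 4 and KO replicate 4 the direction turned: 26 members were positive and 14 negative, the median was 0.06, and edgeR again called 0 members, against 2.62% of all genes. With WT replicate 4 alone left out, 24 were negative (median -0.05), and with KO replicate 4 alone left out, 36 were (median -0.25). Leaving out KO replicate 2 moved the median to -0.56, and then 12 members were lower at an unadjusted p under 0.05, against 9.52% of all genes. Without WT replicate 1, 11 members were, against 7.25%. No member was called in these 4 fits that leave out 1 library. With limma-voom, 16 members were positive and 24 negative, with a median of -0.05.

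**Figure D1:**
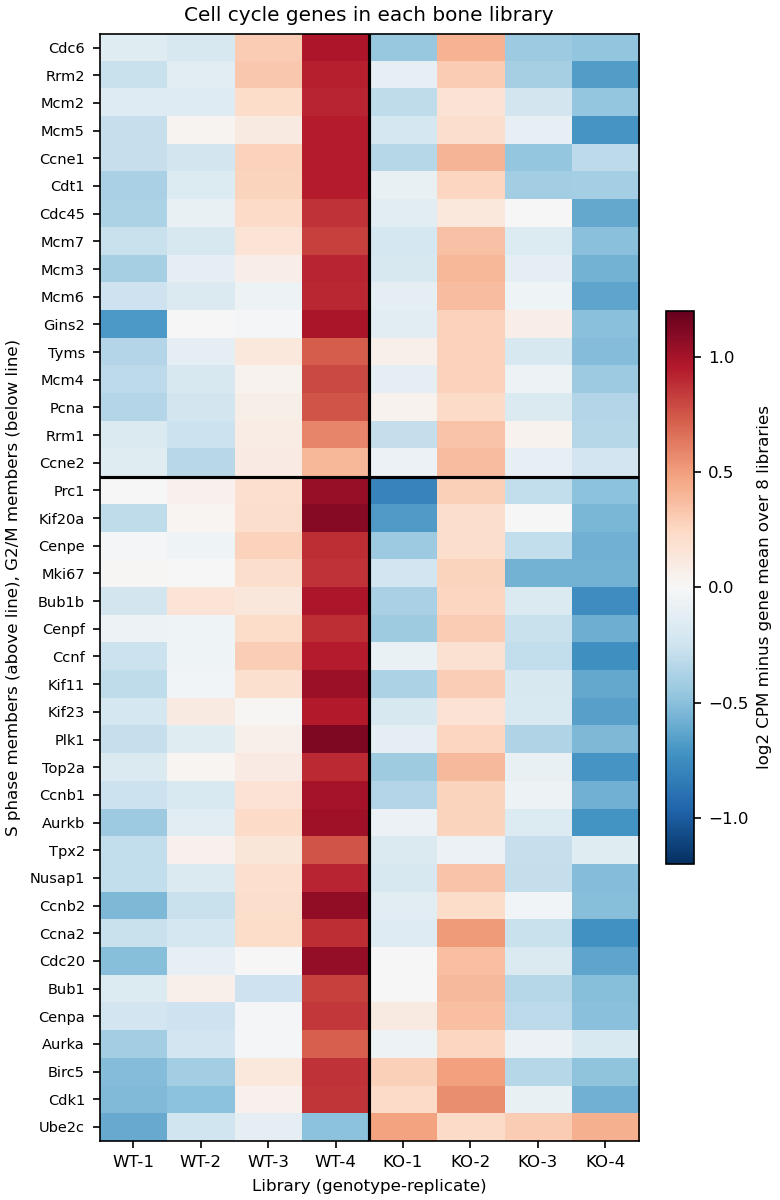
Level of each of the 40 cell cycle genes (rows) in each of the 8 libraries (columns), as log2 CPM minus the gene's mean over the 8 libraries, red above and blue below the mean. WT replicate 4 is the reddest column for 39 of the 40 genes, and Ube2c, the bottom row, is the 1 gene that is high in every KO library.

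WT replicate 4 carried the highest level of nearly every member. It was the highest of 8 libraries for 39 of the 40 members, against 24.1% of all genes tested, and KO replicate 4 was the lowest for 28, against 20.1%. WT replicate 4 stood 1.42-fold to 2.36-fold above the mean of the other WT libraries for these 39 genes, with a median of 1.94-fold over all 40. KO replicate 4 stood at 0.563 to 1.02 times the mean of the other KO libraries for the same 39 genes, with a median of 0.687 over all 40. KO replicate 2 was the highest KO library for 39 members. Over replicates 1 to 3 alone, the ratio of the KO mean to the WT mean ran from 0.820 to 1.57, with a median of 1.04, and was above 1 for 26 members.

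The same libraries set the level of each phase. The mean log2 CPM of the 16 S members was 4.93, 5.08, 5.38 and 6.07 in WT replicates 1 to 4 and 5.07, 5.53, 5.06 and 4.75 in KO replicates 1 to 4. For the 23 G2/M members other than Ube2c it was 4.96, 5.14, 5.37 and 6.17 in WT and 5.03, 5.53, 5.01 and 4.68 in KO, for the same replicates. WT replicate 4 lay above every other library and KO replicate 4 below every other library in both phases, and the remaining 6 libraries overlapped. The SD over WT mice was 0.51 for S and 0.53 for G2/M with all 4 libraries, and 0.23 and 0.20 without replicate 4. The S level was 0.26 lower in KO than in WT with all libraries (5.36 ± 0.51 for WT against 5.10 ± 0.32 for KO, SD, n = 4 each), and 0.09 higher in KO without both replicates 4.

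**Figure D2:**
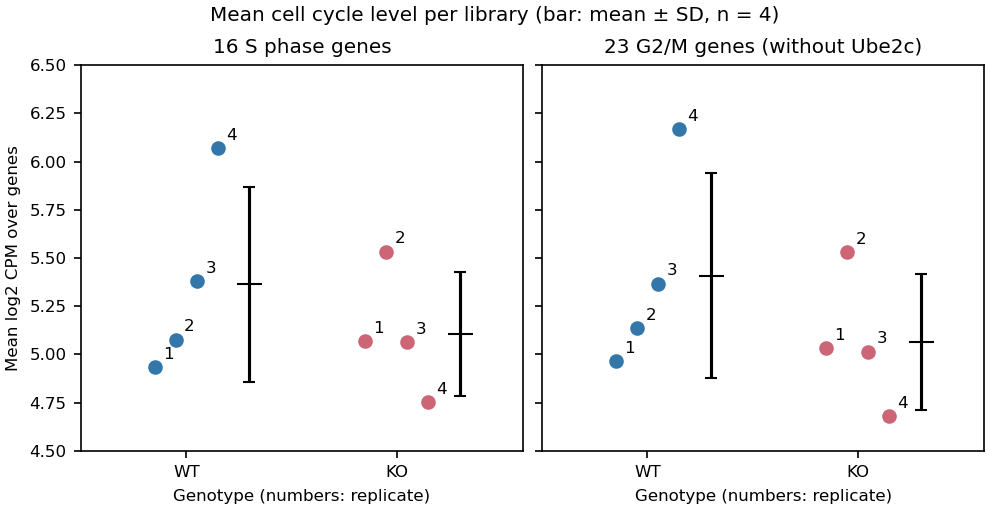
Mean log2 CPM over the S phase genes (left) and over the G2/M genes other than Ube2c (right) in each library, with the replicate number beside each point and the mean ± SD of 4 libraries beside each genotype. WT replicate 4 lies at 6.07 and 6.17 and KO replicate 4 at 4.75 and 4.68, outside the range of the other 6 libraries.

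The genes that open S phase and license origins had negative log2 fold changes in KO that did not pass. Ccne1 and Ccne2, the E cyclins, had log2 fold changes of -0.40 and -0.02, and of -0.02 and 0.20 without both replicates 4. Cdc6, the origin loading factor, was at 26.4, 25.5, 36.0 and 57.0 CPM in WT replicates 1 to 4 and at 21.3, 38.8, 21.5 and 21.0 CPM in KO. KO replicate 2 lay within the WT range, and the other KO libraries lay below it. Its fold change on the log2 scale was -0.50 ± 0.29 (SE; adjusted p = 0.401, edgeR). Cdt1, its partner in loading, had a log2 fold change of -0.39. Leaving out both replicates 4 gave -0.10 for Cdc6 and 0.02 for Cdt1. All 6 subunits of the Mcm helicase were negative, from Mcm4 at -0.22 to Mcm2 at -0.46. Mcm2 was at 51.6, 51.4, 66.9 and 108 CPM in the WT mice and at 46.3, 64.7, 49.2 and 41.6 CPM in the KO mice (-0.46 ± 0.24 on the log2 scale, SE; adjusted p = 0.352, edgeR). Mcm5 was at 43.7, 54.4, 57.2 and 102 CPM in the WT mice and at 45.8, 61.3, 49.6 and 32.5 CPM in the KO mice. The groups overlapped for both, and without both replicates 4 their log2 fold changes were -0.08 and 0.01. Mcm3 (0.19), Mcm4 (0.19), Mcm6 (0.25) and Mcm7 (0.10) were then positive.

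Replication fork and nucleotide genes did not pass the test either. Pcna, the sliding clamp, was at 95.3, 105, 128 and 206 CPM in the WT mice and at 125, 143, 108 and 95.3 CPM in the KO mice. Its groups overlapped, with a log2 fold change of -0.18 (SE 0.24) that became 0.20 without both replicates 4. Cdc45 and Gins2, which activate the helicase, had log2 fold changes of -0.36 and -0.24, and of 0.06 and 0.29 without both replicates 4. Of the exonic bases of Gins2, 67.3% are shared with Gse1 on the opposite strand. The strand setting of the counting is not given in the sources used here. It is therefore not known how reads in the shared bases were counted, or whether the counts of Gins2 hold reads of Gse1. Rrm2, the small subunit of ribonucleotide reductase, which makes deoxynucleotides, was at 82.1, 90.8, 124 and 188 CPM in the WT mice and at 92.2, 122, 74.9 and 62.2 CPM in the KO mice. The groups overlapped again, with a log2 fold change of -0.46 ± 0.28 (SE; adjusted p = 0.425, edgeR), which was -0.17 without WT replicate 4 and -0.04 without both replicates 4. Rrm1, its large subunit, and Tyms, which makes thymidylate, had log2 fold changes of -0.13 and -0.22. Both turned positive without both replicates 4, at 0.17 and 0.16.

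The cyclins and kinases that drive mitosis did not pass the test, and their log2 fold changes ran from -0.50 to 0.00. Ccnf (-0.50), Ccnb1 (-0.42), Ccnb2 (-0.35) and Ccna2 (-0.33) had negative log2 fold changes, as had Plk1 (-0.46), the Polo kinase, and Aurkb (-0.41), the kinase of the chromosomal passenger complex. Aurka (-0.08), the spindle pole kinase, and Birc5 (-0.08), the survivin subunit of the passenger complex, were near 0. Leaving out both replicates 4 gave -0.06 for Ccnf, 0.06 for Ccnb1, 0.19 for Ccnb2 and 0.14 for Ccna2. It gave 0.06 for Plk1, 0.11 for Aurkb, 0.27 for Aurka and 0.43 for Birc5. Cdk1, the central mitotic kinase, was at 25.7, 26.4, 38.4 and 67.4 CPM in the WT mice and at 43.6, 54.8, 35.0 and 25.0 CPM in the KO mice. The groups overlapped, and its fold change on the log2 scale was 0.00 (SE 0.33). Without both replicates 4 it was 0.56 (SE 0.20, edgeR adjusted p = 0.132), the second largest value among the members after Ube2c.

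Spindle, kinetochore and chromosome genes held the 4 most negative values. Prc1, which bundles microtubules between the separating chromosomes, was at 30.3, 31.4, 35.0 and 62.9 CPM in the WT mice and at 17.5, 37.1, 24.8 and 21.7 CPM in the KO mice. KO replicate 2 lay above 3 of the WT libraries and the other KO libraries below all of them, with a log2 fold change of -0.66 ± 0.28 (SE; adjusted p = 0.251, edgeR). The motor Kif20a (-0.57), the bipolar spindle motor Kif11 (-0.50), Kif23 (-0.48), Tpx2 (-0.38) and Nusap1 (-0.37) completed that group. Leaving out both replicates 4 gave -0.10 for Kif20a, -0.02 for Kif11, -0.04 for Kif23, -0.15 for Tpx2 and 0.06 for Nusap1. Of the kinetochore genes, Cenpe, a motor that moves chromosomes to the spindle equator, was at 28.4, 27.8, 34.9 and 53.1 CPM in the WT mice and at 21.3, 33.3, 23.5 and 19.3 CPM in the KO mice. Its fold change on the log2 scale was -0.57 ± 0.24 (SE; adjusted p = 0.241, edgeR), again with KO replicate 2 inside the WT range. Cenpf had -0.51 and the centromeric histone gene Cenpa -0.21, and these became -0.13 and 0.24 without both replicates 4.

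Mki67, whose product coats mitotic chromosomes and is the usual marker of dividing cells, was at 319, 315, 365 and 575 CPM in the WT mice and at 269, 378, 213 and 212 CPM in the KO mice. The groups overlapped through KO replicate 2, and the log2 fold change was -0.55 ± 0.25 (SE; adjusted p = 0.283, edgeR). Top2a, which untangles the copied chromosomes, was at 117, 135, 141 and 247 CPM in the WT mice and at 98.5, 173, 124 and 80.9 CPM in the KO mice, and its log2 fold change stood at -0.43 ± 0.28 (SE; adjusted p = 0.465, edgeR). The checkpoint genes Bub1b (-0.55) and Bub1 (-0.26) and the APC/C adaptor Cdc20 (-0.31) had negative values. They stood at -0.11, 0.16 and 0.26 when both replicates 4 were left out. Without both replicates 4 the log2 fold changes of Mki67, Prc1 and Cenpe were -0.22, -0.28 and -0.22, and that of Top2a 0.01.

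**Figure D3:**
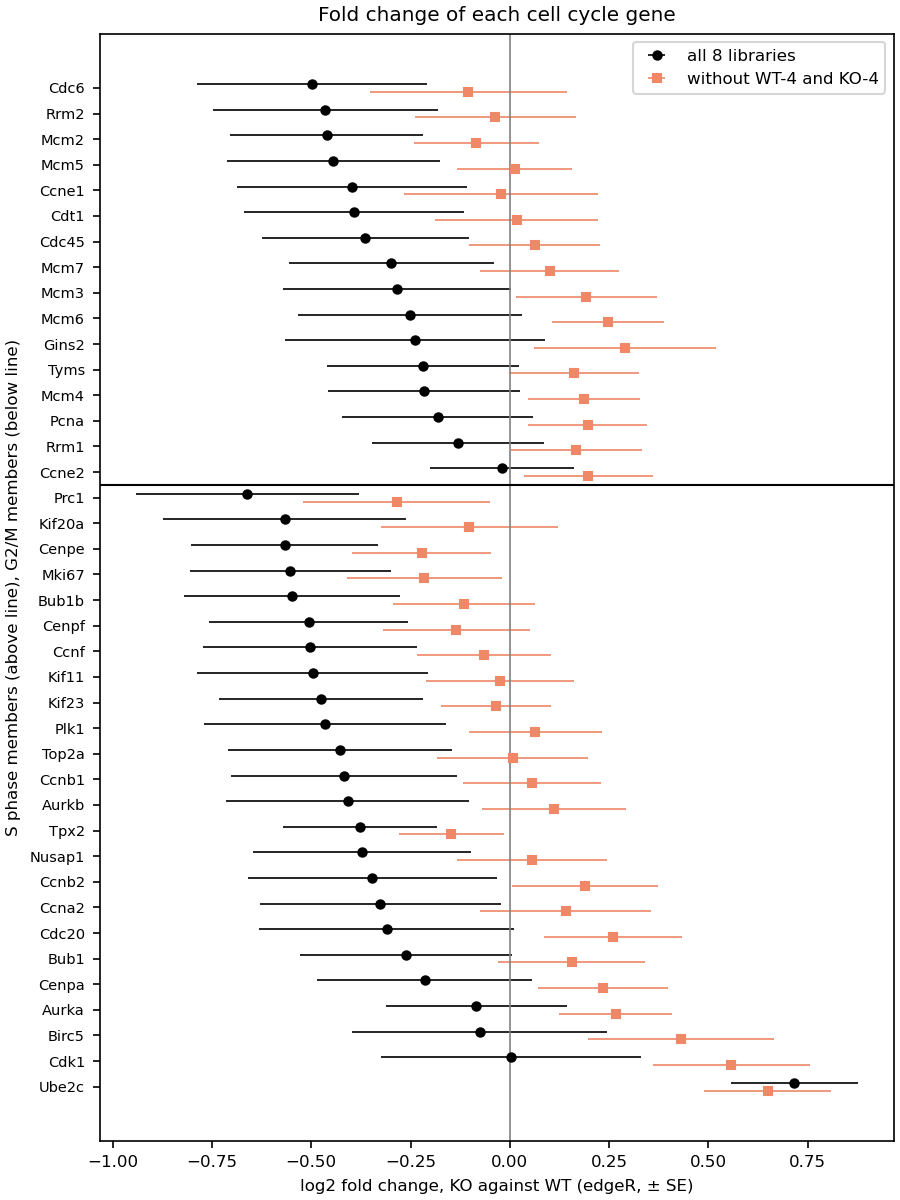
Log2 fold change of KO against WT with its SE for each member, from edgeR with all 8 libraries (black circles) and without WT replicate 4 and KO replicate 4 (orange squares). With all libraries 38 of 40 genes lie below 0, and without those libraries 26 lie above it, while Ube2c lies at 0.72 and 0.65.

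S and G2/M genes moved together from library to library. All 16 S members and 22 of the 24 G2/M members had negative log2 fold changes, with medians of -0.29 and -0.41. Without both replicates 4, 12 of 16 and 14 of 24 were positive, with medians of 0.13 and 0.06. The S median was -0.47 without KO replicate 2 and -0.44 without WT replicate 1. The level of the 23 G2/M genes minus that of the S genes was 0.03, 0.06, -0.01 and 0.10 log2 units in WT replicates 1 to 4 and -0.04, -0.00, -0.05 and -0.07 in KO. Their mean was 0.04 ± 0.05 for the WT mice and -0.04 ± 0.03 for the KO mice (SD, n = 4 each), and the genotypes overlapped, since WT replicate 3 lay below KO replicate 2. A score over chosen genes was given no test. Within a library the phases thus stood within 0.10 log2 units of each other, while the libraries spanned 4.75 to 6.07 in S.

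Ube2c had the highest mean CPM over the 8 libraries and the most positive log2 fold change of the members, although the mean CPM of Mki67 was higher in WT (394 against 380), and it was the 1 member that was not highest in WT replicate 4. It was at 319, 409, 447 and 344 CPM in WT replicates 1 to 4 and 676, 568, 599 and 652 CPM in KO, which are 380 ± 59.1 and 624 ± 49.1 CPM (SD, n = 4 each). Every KO library lay above every WT library, and Ube2c was the 1 member of 40 whose groups did not overlap, against 13.1% of all genes tested and 7.34% higher in every KO library. Its fold change on the log2 scale was 0.72 ± 0.16 (SE; adjusted p = 0.0840, edgeR) and did not pass. DESeq2 (adjusted p = 0.000251) and limma-voom (adjusted p = 0.0354) called it, and its adjusted p ran from 0.000251 to 0.481 over 19 alternatives. Ube2c was not raised in WT replicate 4, at 0.88 times the mean of the other WT libraries, nor low in KO replicate 4, at 1.06 times the mean of the other KO libraries. Without both, its fold change on the log2 scale was 0.65 ± 0.16 (SE; adjusted p = 0.0567, edgeR).

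The counts assigned to Ube2c were far above those of the genes it works with. Part of the gene lies across an abundant muscle gene on the opposite strand, described below, so these values need not be Ube2c alone. Per kilobase of exon, Ube2c stood at 193 RPKM (CPM divided by exon length in kilobases) over the 8 libraries, followed by Pcna at 52.4, Rrm2 at 37.7 and Mki67 at 32.9 RPKM, and its adaptor partner Cdc20 stood at 16.2 RPKM. The counts of Ube2c were 11.7, 14.7, 12.8 and 5.64 times the median of the other G2/M members in WT replicates 1 to 4, and 24.3, 15.3, 21.7 and 30.1 times in KO. On the log2 CPM scale it stood 3.15 ± 0.60 above the mean of the other G2/M genes in WT and 4.22 ± 0.44 above it for the KO mice (SD, n = 4 each).

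The annotation of the gene bears on these counts. Ube2c (ENSMUSG00000001403) lies on the plus strand of chromosome 2 from 164769898 to 164778822 (GRCm38). The last exon of transcript Ube2c-201, from 164777190 to 164778822, lies across Tnnc2 on the minus strand (164777161 to 164779967), the gene of fast skeletal muscle troponin C. The genes share 592 exonic bases, 22.8% of those of Ube2c and 74.0% of those of Tnnc2. Tnnc2, named here after its values were seen, was at 3074, 3853, 4452 and 2620 CPM in the WT mice and at 5146, 3642, 4477 and 6311 CPM in the KO mice. It was lowest in WT replicate 4 and highest in KO replicate 4, the reverse of the cell cycle genes, and had a log2 fold change of 0.48 ± 0.25 (SE; adjusted p = 0.343, edgeR). The counts of Ube2c were 10.4, 10.6, 10.1 and 13.1% of those of Tnnc2 in WT and 13.1, 15.6, 13.4 and 10.3% in KO. The last exon of Ube2c-201 also spans introns of Tnnc2. Without the strand setting, reads of Ube2c and Tnnc2 across that exon cannot be told apart. The part of Tnnc2 in the counts of Ube2c was not tested.

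**Figure D4:**
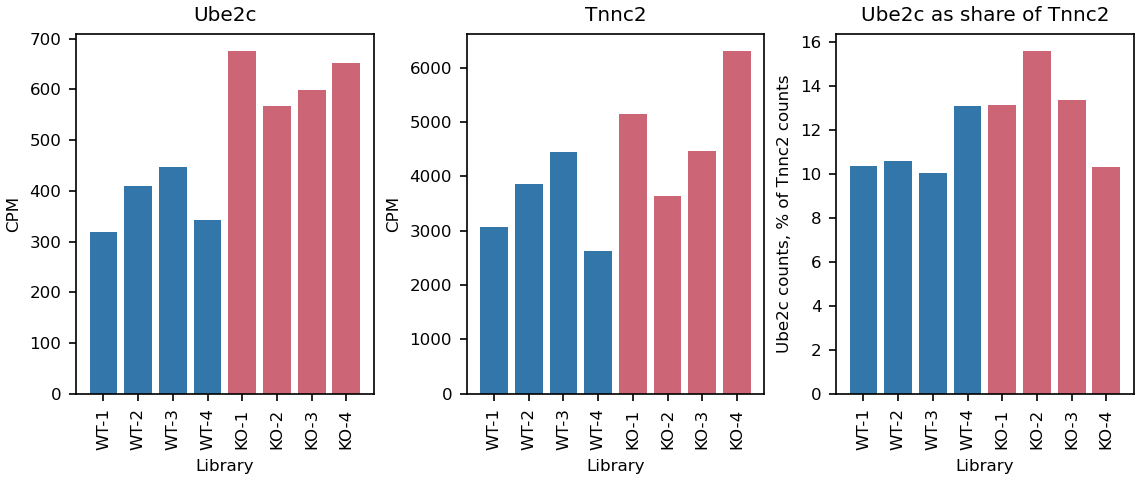
Ube2c (left) and Tnnc2 (middle) in CPM, and Ube2c counts as a percentage of Tnnc2 counts (right), in each library, WT in blue and KO in red. Ube2c is 319 to 447 CPM in WT and 568 to 676 CPM in KO, Tnnc2 overlaps between the genotypes, and the percentage runs from 10.1 to 15.6.

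Exon length moved with the fold changes. Over all genes tested, the median log2 fold change was 0.21 in the decile of shortest genes and -0.19 in the decile of longest. Among the 39 members other than Ube2c, Spearman's rho of log2 fold change with exon length was -0.37, a description across genes that share libraries. With the length trend of each library removed it was 0.10. The 4 most negative members, Prc1 (8225 exonic bases), Kif20a (4338), Cenpe (8620) and Mki67 (10061), lay 0.54, 0.55, 0.44 and 0.36 log2 units below the median of their length decile. Relative to the median of its length decile Plk1 (2199 bases) lay lowest of the members, at 0.60 below. Ube2c (2600 bases) lay 0.65 above the median of its own decile. With the trend removed, 38 of 40 members were still negative, with a median of -0.36.

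**Figure D5:**
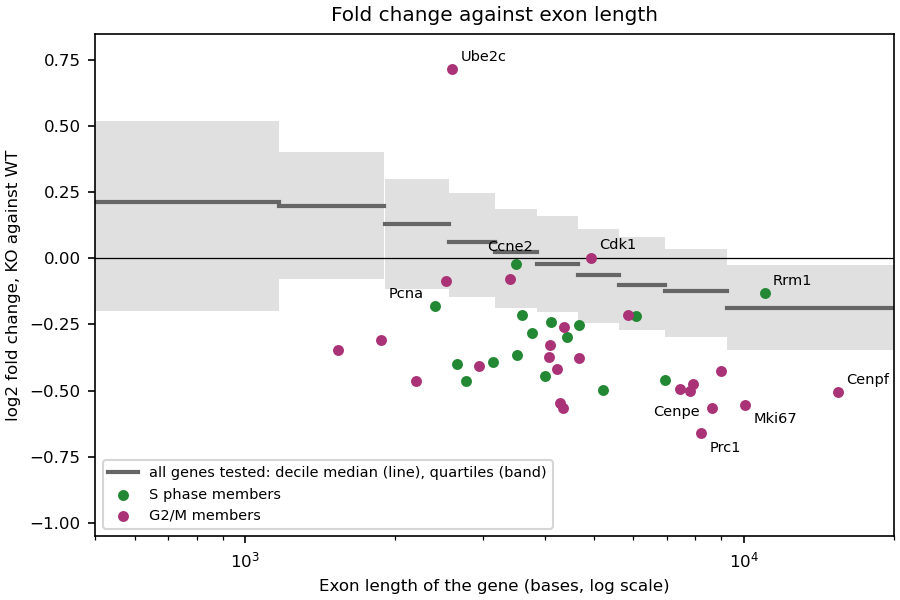
Log2 fold change of KO against WT against exon length (log axis, whose left edge leaves out the shortest genes) for S phase members (green) and G2/M members (purple), over the median and quartiles of all genes tested in each decile of length (grey). Decile medians fall from 0.21 to -0.19, most members lie below the median of their decile, and Ube2c lies at 0.72.

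Cell cycle genes outside the 40 followed the same libraries. Of 30 other S genes 25 had negative log2 fold changes (median -0.31), and of 36 other G2/M genes 33 (median -0.31), against 51.4% of all genes. EdgeR called 0 in either list. At an unadjusted p under 0.05 in edgeR, 2 and 4 genes were lower and 0 and 1 higher, against 8.59% and 9.59% of all genes. WT replicate 4 was highest for 29 of the 30 and 35 of the 36, against 24.1% of all genes tested. Without both replicates 4, 18 of 30 and 22 of 36 were positive, with medians of 0.07 and 0.14. Of the other S genes the smallest p belonged to Orc1 (-0.64), the large subunit of the origin recognition complex, and Pole (-0.55), a replicative polymerase. Of the other G2/M genes, Espl1, the separase that cuts cohesin, was at 35.8 ± 10.9 CPM in the WT mice and at 20.5 ± 6.56 CPM in the KO mice (-0.81 ± 0.25 on the log2 scale, SE; adjusted p = 0.141, edgeR). Pttg1, the securin that inhibits separase and is an APC/C substrate, went the other way, at 41.6, 41.1, 49.0 and 40.6 CPM in WT against 74.4, 62.2, 61.8 and 64.6 CPM in KO. Every KO library lay above every WT library, as for 7.34% of all genes tested, and its fold change on the log2 scale was 0.61 ± 0.11 (SE; adjusted p = 0.0728, edgeR). DESeq2 (adjusted p = 0.000251), limma-voom (0.0225), edgeR without both replicates 4 (0.0428) and edgeR with a score of marrow marker genes (0.0132) or of muscle marker genes (0.0297) as a covariate called Pttg1. Of all genes these fits called 6.48%, 4.02%, 2.62%, 8.13% and 4.93%, in the same order. With the exon length trend removed, Pttg1 was at 0.50 and was not called (adjusted p = 0.113, edgeR). Espl1 was called, as lower, by DESeq2 (adjusted p = 0.0446) and by edgeR with the marrow score (0.0274).

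Genes of the APC/C itself lay on both sides of 0. Of 17 genes of its subunits and regulators 11 had positive and 6 negative log2 fold changes (median 0.06). Of all genes 51.4% were negative (median -0.01). With library totals in place of TMM scaling 8 of the 17 were positive and 9 negative (median -0.05). In that fit 11053 of all 17450 genes were negative, with a median of -0.11. With TMM scaling edgeR called 0 of the 17, with 4 higher and 2 lower at an unadjusted p under 0.05, against 9.59% and 8.59% of all genes. WT replicate 4 was highest for 6 of the 17, against 24.1% of all genes tested. Anapc13, a small structural subunit, was at 54.0 ± 6.75 CPM in the WT mice and at 83.3 ± 9.70 CPM in the KO mice (0.62 ± 0.13 on the log2 scale, SE; adjusted p = 0.0769, edgeR). Anapc11, the RING subunit that binds the ubiquitin-conjugating enzyme, was at 41.3 ± 3.23 CPM in the WT mice and at 58.9 ± 6.90 CPM in the KO mice (0.51, SE 0.12, edgeR adjusted p = 0.0841). Neither passed in edgeR with all libraries and no covariate. With the exon length trend removed, Anapc13 and Anapc11 stood at 0.54 and 0.56 and were not called (adjusted p = 0.121 for both, edgeR). Anapc13 and Anapc11 were called by DESeq2 (adjusted p = 0.00187 and 0.00478), by limma-voom (0.0357 and 0.0298), and by edgeR with the marrow score (0.0171 and 0.0157) or the muscle score (0.0397 and 0.0297) as a covariate. These fits called 6.48%, 4.02%, 8.13% and 4.93% of all genes. Without both replicates 4, edgeR called Anapc11 (adjusted p = 0.0477), against 2.62% of all genes. Ube2s, the enzyme that extends chains after Ube2c has begun them, had a log2 fold change of 0.14 (named after its value was seen).

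Regulators of G1 gave no call in edgeR with all libraries and no covariate. Of 24 genes 18 were negative and 6 positive (median -0.17), against 51.4% of all genes negative. At an unadjusted p under 0.05 in edgeR, 4 were lower and 0 higher, against 8.59% and 9.59% of all genes. WT replicate 4 was highest for 15 of the 24, against 24.1% of all genes tested. Without both replicates 4, 14 were positive and 10 negative (median 0.02). E2f8, a repressor of the E2F family, was at 46.5 ± 18.7 CPM in the WT mice and at 27.1 ± 3.97 CPM in the KO mice (-0.78 ± 0.24 on the log2 scale, SE; adjusted p = 0.140, edgeR), and was called by DESeq2 (adjusted p = 0.0444) and by edgeR with the marrow score (0.0397). DESeq2 and the fit with the marrow score called 6.48% and 8.13% of all genes. In WT replicate 4 E2f8 was at 73.8 CPM, against 33.0, 35.9 and 43.1 CPM in WT replicates 1 to 3. Rb1, the brake on entry into S phase, had a log2 fold change of -0.47 (edgeR adjusted p = 0.192).

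Markers of other tissues differed between the same libraries. The summed level of 12 red cell markers was 4405, 3884, 8018 and 12203 CPM in WT replicates 1 to 4 and 8553, 9323, 4637 and 5797 CPM in KO. WT replicate 4 was highest for 10 of 12, and KO replicate 4 lowest for 1. For 12 neutrophil markers the sum was 2359, 3555, 1680 and 5907 CPM in WT against 7893, 3924, 6672 and 852 CPM in KO. KO replicate 4 was lowest for 12 of 12, and WT replicate 4 highest for 3. For 12 B lineage markers the sum was 151, 154, 142 and 214 CPM in WT against 219, 134, 124 and 137 CPM in KO. WT replicate 4 was highest for 9 of these, and KO replicate 4 lowest for 5. Of 6 progenitor markers, which include Kit and Myb, 5 were highest in WT replicate 4 and 4 lowest in KO replicate 4. The 10 muscle markers summed to 63971 CPM in WT replicate 4, the lowest library, and to 168052 CPM in KO replicate 4, the highest, against 100392 to 128044 CPM in the other 6. The 12 osteoblast and osteocyte markers summed to 9192 to 22147 CPM, and the 6 chondrocyte markers to 60.8 to 303 CPM, with 3 of the 6 under 1 CPM on average. No marker of the red cell, neutrophil, B lineage, progenitor or muscle lists was at 0 in any library. With a score of the red cell, neutrophil and B lineage markers as a covariate the medians were -0.19 for S and -0.30 for G2/M, and with a muscle score they were 0.15 and 0.09. Under these covariates edgeR called 1 member each, Ube2c, against 8.13% and 4.93% of all genes. The part of these tissues in the levels of the cell cycle genes was not tested beyond these fits.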

How the data were processed

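The authors deposited 1 table of raw counts per Ensembl gene with 1 column per mouse. The submitters' processing notes list STAR 2.5.2b, bcl2fastq 2.17, Subread 1.5.2 and featureCounts, and the build mm10. Per the labels' protocols, the library kit was NEBNext Ultra II RNA. The annotation and strand setting were not given in the sources used here. Of 49315 gene IDs 49056 matched GENCODE M21, which gave symbols, positions and exon lengths. Totals of 30087749 to 36553713 counts limit the precision of low genes. No 2 libraries were repeats of each other (chi-square of at least 43.1 per degree of freedom over 28 pairs).

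The genotypes were tested by edgeR 4.0.16 under R 4.3.3 (TMM, filterByExpr, robust quasi-likelihood test, group as the only term, threshold 0.05 on the Benjamini-Hochberg adjusted p over all genes tested). CPM used TMM-scaled totals, and log2 CPM a prior count of 2. Each library was treated as a separate mouse, since the protocol counts 4 animals per genotype. The pipeline was tested on simulated data.

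The members and gene lists were chosen with earlier results of these data known. Values per library are given for Ube2c, the 4 members of each phase with the smallest p, the 2 of each phase with the highest CPM, Mki67, Top2a and Pcna, and, after its values were seen, for Cdk1. Of the other lists, 2 genes with the smallest p were named. Alternatives were DESeq2 1.42.0, limma-voom 3.58.1 with quality weights, other scalings and filters, covariates, a replicate block, removal of the length trend (loess, span 0.3) and omission of libraries. The omission of Ube2c from the G2/M list was chosen after seeing the data.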

Additional observations from a re-analysis of the deposited data

Results flagged for a closer look

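In groups of 4 libraries, 7 of 88 sets of values held 1 library far from the others, where chance gives about 1 in 20. These sets share the same 8 libraries, and the spread of WT replicate 4 and KO replicate 4 was known when the genes were chosen, so the count is a description and no test. In WT, replicate 4 was far above the rest for Mcm6 (116 CPM, the others 52.2 to 59.1), Plk1 (49.7 CPM, the others 18.9 to 23.9), Cenpa (89.1 CPM, the others 41.6 to 49.0) and Prc1 (62.9 CPM, the others 30.3 to 35.0). In KO, replicate 2 was far above the rest for Ccne1 (25.4 CPM, the others 13.9 to 15.5) and Cdc6 (38.8 CPM, the others 21.0 to 21.5). The level of Ube2c above the mean of the other G2/M genes was 2.25 log2 units in WT replicate 4, against 3.35 to 3.54 in the other WT libraries.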

How the results depend on the processing

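The direction of the cell cycle genes depended on WT replicate 4 and KO replicate 4. Without WT replicate 4 alone, 24 of the 40 members stayed negative, with a median of -0.05. The medians also moved with the muscle score and with limma-voom with quality weights, but hardly with DESeq2. With limma-voom they were 0.01 (S) and -0.09 (G2/M), and with DESeq2 -0.28 and -0.41. The muscle score was lowest in WT replicate 4 (12.3) and highest in KO replicate 4 (13.5), so this covariate is not separate from these libraries. Without WT replicate 4 and KO replicate 4 the medians were 0.132 (S) and 0.0559 (G2/M), and with the muscle score as a covariate 0.152 and 0.0858. Over omissions of single libraries the S median ran from -0.474 (without KO replicate 2) to 0.0103 (without WT replicate 4) and the G2/M median from -0.595 to -0.0623, with the same libraries. Mcm5 and Top2a turned positive without both (0.0124 and 0.00724) and with the muscle score (0.0367 and 0.0257), with single omissions giving -0.596 to -0.133 and -0.665 to -0.142, and Pcna did so without both (0.196), with the muscle score (0.235) and with limma-voom (0.0709), with single omissions giving -0.313 to 0.103. Cdc6, Cenpe, Mcm2, Mki67, Prc1 and Rrm2 kept their negative sign and stayed above the threshold under all 19 alternatives. These are not all the members: without both replicates 4, 26 of the 40 were positive. Ube2c stayed positive under all 19, between 0.62 and 0.80, and passed with DESeq2 (0.72), limma-voom (0.64), the marrow score (0.71) and the muscle score (0.65). Each of these 4 fits called 1 member, and the others 0. With all genes counted, 992 were called by DESeq2, 701 by limma-voom, 1418 with the marrow score, 861 with the muscle score, 458 without both replicates 4, 71 without the low-count filter, and 2 to 4 with single libraries left out. With library totals instead of TMM the median of all genes moved to -0.11, and those of S and G2/M to -0.40 and -0.53. With Ube2c left out the G2/M median was -0.42. Replicate numbers did not pair the mice (same-number correlations of deviations from -0.57 to -0.17, and no WT library correlated best with its own number), and with the replicate block 1 gene was called, 0 of the members, with medians of -0.24 and -0.34. The lowest count of any member in a library was 91, for Gins2.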

Other observations

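Relative to the mean log2 CPM of the other members in the same library, which takes out the level they share, 5 of the 39 members other than Ube2c did not overlap between the genotypes, a comparison chosen after the data were seen and given no test. On the same reference 2.91% of all genes did not overlap, and in CPM 13.1% did not. The reference is made of the members themselves, so these shares are no test of the 5. Prc1 (-0.14 ± 0.09 in WT, -0.49 ± 0.31 in KO), Mki67 (3.27 ± 0.14 and 3.02 ± 0.17) and Cenpe (-0.28 ± 0.12 and -0.52 ± 0.09) were lower in every KO library (SD, n = 4 each). Aurka (-0.53 ± 0.03 and -0.24 ± 0.16) and Mcm4 (0.23 ± 0.03 and 0.37 ± 0.07) were higher in every KO library. Cdk1, at -0.21 ± 0.16 in WT and 0.17 ± 0.20 in KO, had the largest difference after Ube2c, but KO replicate 4 (-0.06) lay within the WT range. Among these 39 genes Spearman's rho of the relative difference with exon length was -0.43, a description across genes.

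Exonic bases were shared with another annotated gene by 13 members. After Gins2 (67.3% with Gse1), the largest shares, all on the opposite strand, were 29.3% of Kif20a with Cdc23, 22.8% of Ube2c with Tnnc2, 17.4% of Ccne2 with Ints8, 12.5% of Ccna2 with Exosc9 and 11.1% of Prc1 with Rccd1.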
